A study of Mus musculus with 5 samples.

Results

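The small leucine-rich proteoglycans are secreted matrix proteins built on a run of leucine-rich repeats, and 9 genes of this family were followed across single-cell libraries of sorted mouse liver cells. The genes were taken from a fixed list of names, and no measured value chose them: Dcn (decorin), Bgn (biglycan), Aspn (asporin), Ecm2, Fmod (fibromodulin), Lum (lumican), Prelp, Ogn (osteoglycin) and Podn (podocan). They are 9 of 31053 genes in the files, and 8 of them, all but Fmod, had more than 3 UMIs in every library. A UMI is a molecular barcode that counts 1 captured RNA molecule, and levels are given as CPM, the UMIs of a gene for each 1000000 UMIs of the library.

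The proteins of this family coat collagen fibrils, set how thick the fibrils grow and hold growth factors in the matrix. Decorin and biglycan carry chondroitin or dermatan sulphate chains and bind TGF-beta, while fibromodulin, lumican and Prelp belong to a class that is modified with keratan sulphate or sulphated tyrosines. In the liver they are products of hepatic stellate cells (HSC), the vitamin A storing pericytes of the sinusoid, and of portal fibroblasts and vascular smooth muscle cells, and several of them accumulate in scar tissue.

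The mice were C57BL/6J males that carried Rosa26mTmG and Col1a1-Cre (mTmG;CC), and every group, controls included, shared the reporter and Cre transgenes. At 2 weeks of age the mice received diethyl nitrosamine (DEN), a liver carcinogen, at 10 mg/kg, or saline. From 6 weeks of age they were fed for 5 months on liquid Western alcohol diet (WAD) with 3.5% (v/v) ethanol, or on chow. Non-parenchymal cells were sorted by GFP, which Cre under the Col1a1 promoter switches on, and by the autofluorescence of vitamin A (VitA). The groups were VitA+Col1a1+ chow (saline and chow), VitA-Col1a1+ chow, VitA+Col1a1+ DEN+WAD (DEN and WAD), VitA-Col1a1+ DEN+WAD and VitA-Col1a1- DEN+WAD, with 1 library in each. The 4 Col1a1+ libraries are called VitA+ chow, VitA- chow, VitA+ DEN+WAD and VitA- DEN+WAD from here on. The reporter is a permanent mark, so it records that the Col1a1 promoter was once active and not that it is active at the sort. How many animals went into a library is not given in the sources used here. With 1 library per group no difference has a replicate check, no p-value was made, and every interval below is a 95% interval for counting error only.

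There were 10481 cells in VitA+ DEN+WAD and 9870 in VitA-Col1a1- DEN+WAD, against 2729 in VitA- DEN+WAD, 668 in VitA- chow and 259 in VitA+ chow. Totals ran from 6145748 to 149936344 UMIs, and median UMIs per cell were highest in the chow libraries. Pairs of libraries shared between 0 and 21 cell barcodes, at most 0.749% of the smaller library. All samples are labelled as hepatic stellate cells. The summed level of 15 stellate markers was 30494 and 30896 CPM in the VitA+ libraries, 6220 and 13184 in the VitA-Col1a1+ libraries for chow and DEN+WAD, and 6663 in the VitA-Col1a1- library. The library labelled VitA-Col1a1- held Col1a1 at 1062 CPM, above both VitA+Col1a1+ libraries (99.4 in chow and 304 in DEN+WAD), so its sort label and its RNA did not go together. It is used below for levels and for other cell types, in no ratio.

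Positions are on GRCm38 from the GENCODE M21 annotation, and all 9 genes are protein-coding. The genes lie in small groups. Ecm2 (chr13:49504810-49532789), Aspn (chr13:49544443-49567565) and Ogn (chr13:49608046-49624501) follow each other on the plus strand of chromosome 13, with the family gene Omd (chr13:49582462-49592822) between Aspn and Ogn. Dcn (chr10:97479609-97518143) and Lum (chr10:97565128-97572703) are neighbours on the plus strand of chromosome 10. On chromosome 1, Prelp (chr1:133910304-133921414, minus strand) lies close to Fmod (chr1:134037254-134048277, plus strand). Podn (chr4:108014791-108096445, minus strand) and Bgn (chrX:73483602-73495933, plus strand) stand alone. As the values below show, neighbours such as Aspn and Ogn did not have the same pattern.

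The 250 bases upstream of the annotated start are shown for 4 members, Ogn and Podn because their levels followed each other most closely over clusters of cells, and Fmod and Aspn because they were close to absent from the VitA+ gate. The sequences are RefSeq promoters of GRCm38.p6, written 5′ to 3′ on the gene's own strand, and capitals mark matches on either strand to a TATA box (TATAAA), a TEAD-type motif (GGAATG), an SP-type motif (GGGCGG) or an AP-1-type motif (TGANTCA).
Ogn: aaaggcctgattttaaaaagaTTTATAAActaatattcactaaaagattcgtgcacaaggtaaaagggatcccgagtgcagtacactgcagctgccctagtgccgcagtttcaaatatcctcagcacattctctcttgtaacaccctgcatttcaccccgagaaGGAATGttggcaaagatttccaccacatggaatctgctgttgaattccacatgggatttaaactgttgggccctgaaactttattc
Podn: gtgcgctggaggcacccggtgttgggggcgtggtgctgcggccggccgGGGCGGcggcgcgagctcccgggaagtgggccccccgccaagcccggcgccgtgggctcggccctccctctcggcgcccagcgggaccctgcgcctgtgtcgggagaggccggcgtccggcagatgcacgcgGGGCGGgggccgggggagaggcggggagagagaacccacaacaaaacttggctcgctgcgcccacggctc
Fmod: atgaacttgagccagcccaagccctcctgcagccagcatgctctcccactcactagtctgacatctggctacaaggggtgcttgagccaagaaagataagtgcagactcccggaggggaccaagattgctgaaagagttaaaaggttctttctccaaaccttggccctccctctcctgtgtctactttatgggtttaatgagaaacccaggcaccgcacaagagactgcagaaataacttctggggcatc
Aspn: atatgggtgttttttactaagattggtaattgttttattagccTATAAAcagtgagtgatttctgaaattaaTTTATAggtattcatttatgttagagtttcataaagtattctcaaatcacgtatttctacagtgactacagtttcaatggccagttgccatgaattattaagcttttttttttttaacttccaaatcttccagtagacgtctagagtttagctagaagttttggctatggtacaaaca
The Ogn window is chr13:49607765-49608014 (plus strand), the Podn window chr4:108031955-108032204 (minus strand, within the longest Podn gene model), the Fmod window chr1:134037004-134037253 (plus strand) and the Aspn window chr13:49544193-49544442 (plus strand). The GC content was 42% for Ogn, 78% for Podn, 51.2% for Fmod and 30% for Aspn, against a median of 52.4% over 32851 promoters of the same length. The printed windows of Ogn and Podn thus differed widely in base composition, and that of Podn held 32 CpG sites where that of Ogn held 4. A second Podn start in the table had 64% GC, 7 CpG sites and no match to the 4 motifs. Ogn held 2 overlapping TATAAA matches on opposite strands, 229 and 227 bases before the start, and 1 GGAATG match 86 bases before it. Podn held GGGCGG at 202 and 70 bases, Aspn held TATAAA at 207 and 178 bases, and the Fmod window held none of the 4 motifs. Over all promoters TATAAA was found in 12.4%, GGAATG in 12.6%, GGGCGG in 32.7% and TGANTCA in 6.75%. The table held entries for 7 of the 9 members, with none for Dcn and Lum. These matches are descriptions of letters in the window, not sites of binding.

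Dcn was by far the most counted family member. It had 22437 CPM in VitA+ chow, 26116 in VitA+ DEN+WAD, 7624 in VitA- chow, 15870 in VitA- DEN+WAD and 7098 in VitA-Col1a1- DEN+WAD. Both VitA+ libraries lay above all VitA- libraries. Dcn made up between 54.3% of the family's UMIs (VitA- chow) and 77.4% (VitA+ DEN+WAD). These shares are of 3′ molecule counts, which do not depend on transcript length.

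Bgn, whose soluble protein is a ligand of toll-like receptors, had the same order of libraries in a narrower range. Its level was 4359 CPM in VitA+ chow, 5045 in VitA+ DEN+WAD, 2583 in VitA- chow, 3832 in VitA- DEN+WAD and 2071 in VitA-Col1a1- DEN+WAD. The whole family summed to 29780 and 33736 CPM in the VitA+ libraries of chow and DEN+WAD, and to 14036 and 22455 in the VitA-Col1a1+ libraries. The sum therefore followed Dcn and Bgn, and it hides the members that ran the other way.

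Aspn, which encodes a decorin relative without the chondroitin or dermatan sulphate chain of decorin, was nearly missing from the VitA+ gate. It had 1.95 CPM in VitA+ chow, which is 12 UMIs in 2 cells, and 0.687 in VitA+ DEN+WAD, which is 103 UMIs in 32 of 10481 cells. The level was 80.1 in VitA- chow, 30.8 in VitA- DEN+WAD and 12.6 in VitA-Col1a1- DEN+WAD. Ecm2, the leucine-rich matrix gene next to it, varied far less: 16.8, 14.99, 58.3, 34.5 and 15.99 CPM in the same order of libraries. The 3 lowest Ecm2 levels had counting intervals that overlapped.

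Fmod, which steers collagen cross-linking, showed the widest range of the family. It had 0.325 CPM in VitA+ chow (2 UMIs in 2 cells), 3.77 in VitA+ DEN+WAD (566 UMIs in 115 cells), 403 in VitA- chow, 158 in VitA- DEN+WAD and 28.7 in VitA-Col1a1- DEN+WAD. Lum, its close relative and a regulator of fibril spacing, showed one of the narrowest. The Lum levels were 724 CPM in VitA+ chow, 706 in VitA+ DEN+WAD, 750 in VitA- chow, 875 in VitA- DEN+WAD and 487 in VitA-Col1a1- DEN+WAD. The counting interval of the VitA+ chow level overlapped those of its neighbours on either side.

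Prelp, which anchors basement membrane to collagen, had its highest level in VitA+ chow. It ran 2127 CPM there, 1797 in VitA+ DEN+WAD, 1460 in VitA- chow, 1243 in VitA- DEN+WAD and 684 in VitA-Col1a1- DEN+WAD. Ogn had 67.9, 22.8, 751, 249.5 and 47.5 CPM in that order of libraries. Podn, whose product restrains smooth muscle growth and migration, had 44.9, 30.6, 328, 163 and 33.4. Both were far higher in the VitA-Col1a1+ libraries than elsewhere, and for both the chow library of each Col1a1+ gate lay above its DEN+WAD counterpart. Apart from the overlaps given for Ecm2 and Lum, neighbouring levels of a member had counting intervals that did not overlap, which says nothing of the spread between mice.

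**Figure D1:**
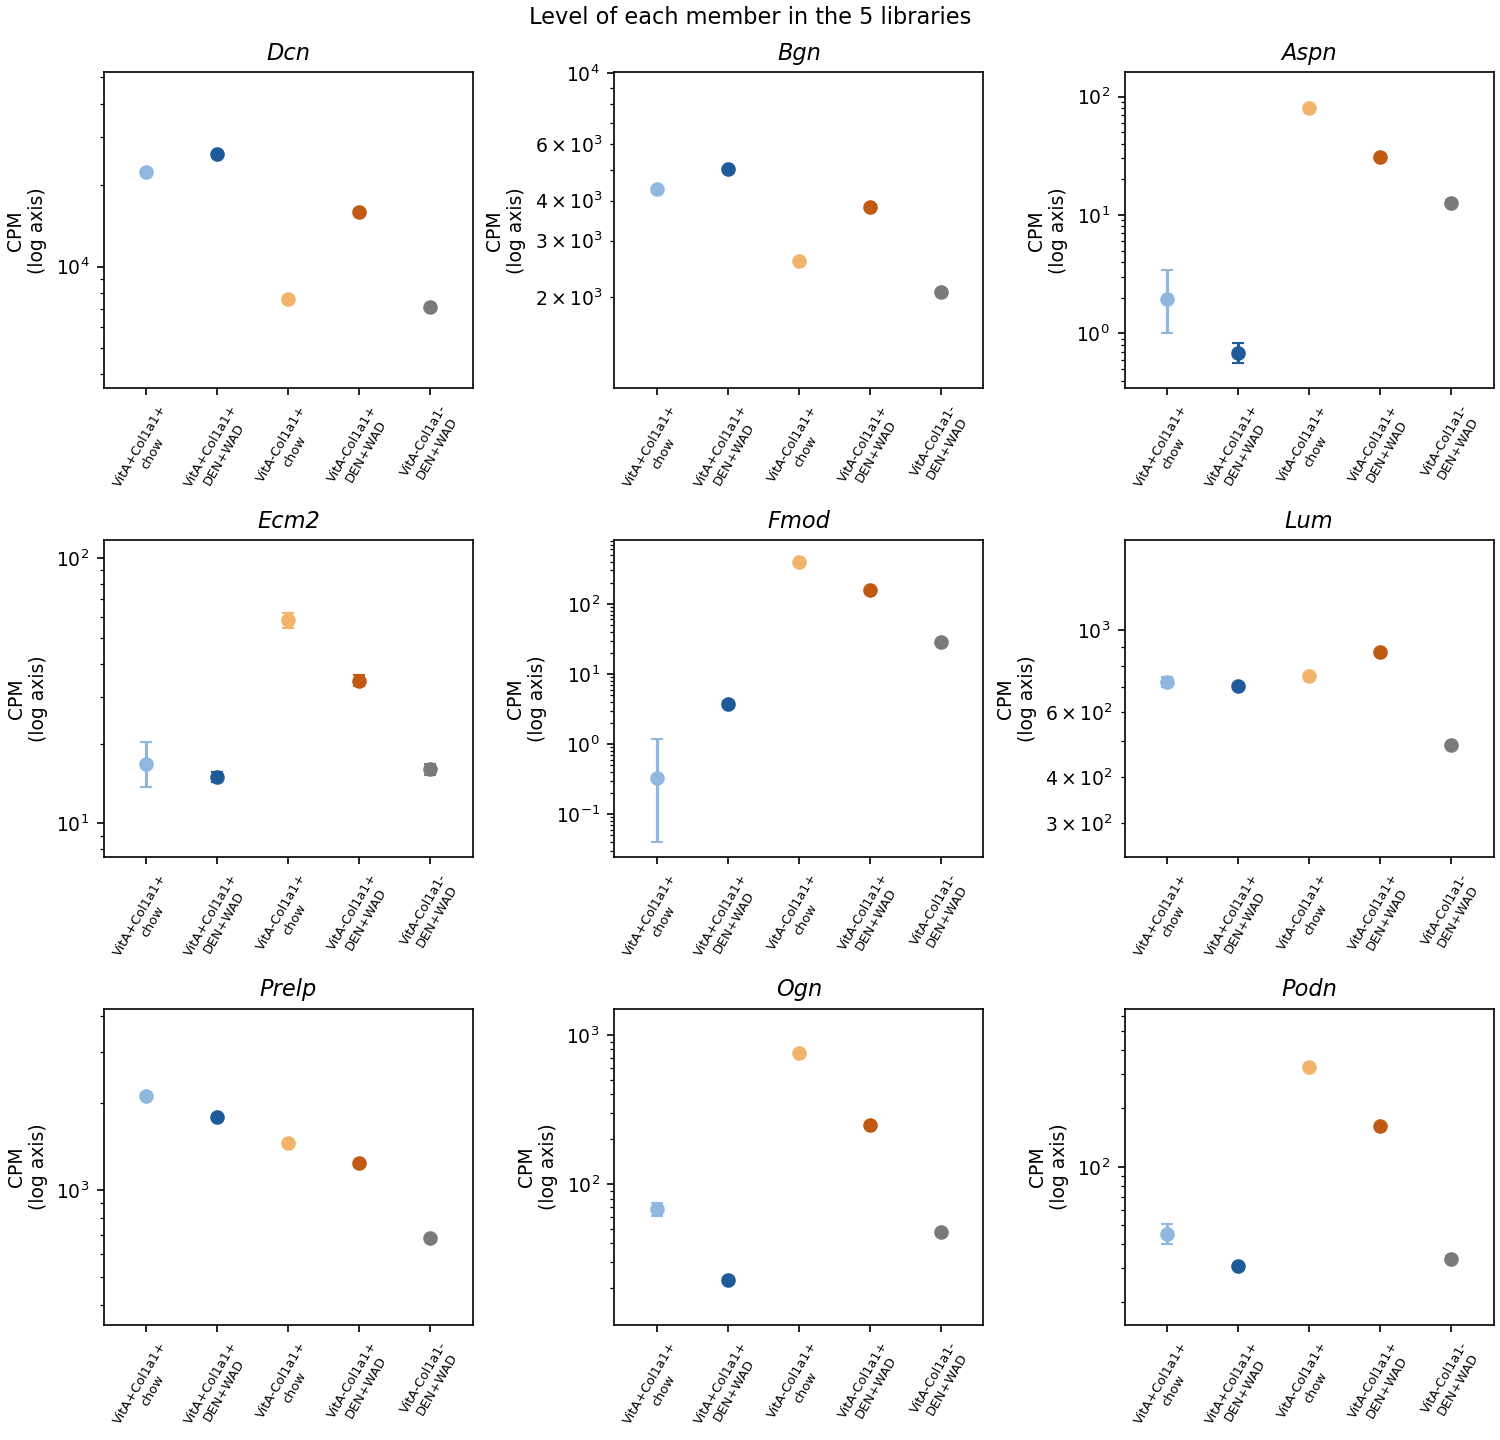
Level of each member in the 5 libraries, in CPM on a log axis whose range differs between panels. Points are single libraries and bars are exact Poisson 95% intervals, which are hidden by the point where counts are high. Dcn, Bgn and Prelp are highest in the VitA+ libraries, and Aspn, Ecm2, Fmod, Ogn and Podn are highest in VitA- chow.

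The comparison of VitA-Col1a1+ with VitA+Col1a1+ cells asks how Col1a1+ cells without the vitamin A signal differ from those with it. By their markers the VitA- libraries were mixtures, and 43.2% of the VitA- DEN+WAD cells were stellate-like. In chow liver, 5 members were at least 2-fold higher in the VitA- gate, 1 was at least 2-fold lower and 3 lay between. Of all 10168 genes with a mean of at least 5 CPM in this pair of libraries, 10.5% were as much higher and 5.37% as much lower. The median log2 ratio was 1.80 over the 9 members and 0.07 over all genes.

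Members nearly absent from the VitA+ gate led this difference. Fmod was 1238-fold higher in the VitA- gate, but on 2 UMIs in the VitA+ library, which gives a counting interval of 343 to 10223. Aspn was 41.0-fold higher (23.4 to 79.7), also on few VitA+ counts. Ogn, with 417 and 11257 UMIs, was 11.1-fold higher (10.0 to 12.2) and Podn 7.30-fold (6.46 to 8.27). These were followed by Ecm2 at 3.48-fold (2.83 to 4.31). Against them stood Dcn, whose ratio was 0.340 (0.337 to 0.342), with Bgn at 0.593 and Prelp at 0.686. Lum was close to equal at 1.04 (1.0004 to 1.07), and its log2 ratio of 0.05 became −0.04 with TMM scaling.

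In DEN+WAD liver the same 5 members were at least 2-fold higher in the VitA- gate, none was at least 2-fold lower and 4 lay between. Over 9905 genes the background was 8.64% higher and 1.65% lower. The median log2 ratio was 1.20 over the members and 0.09 over all genes.

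Aspn was 44.8-fold higher (36.7 to 55.3), Fmod 41.8-fold (38.4 to 45.6), Ogn 10.9-fold (10.5 to 11.4) and Podn 5.31-fold (5.12 to 5.51). Ecm2 was 2.30-fold higher (2.16 to 2.45), and its log2 ratio of 1.20 fell to 0.997 with TMM scaling, just short of the 2-fold mark. Ogn therefore had nearly the same ratio between gates in both diets, as did Aspn over all cells, while the ratios of Fmod, Podn and Ecm2 were smaller in DEN+WAD. In mesenchymal-like cells alone Aspn was at least 133-fold higher in chow, with VitA+ chow at 0 UMIs and set to 3, and 57.9-fold (47.4 to 71.4) in DEN+WAD. Dcn was at 0.608, nearer to equal than in chow, with Prelp at 0.692, Bgn at 0.760 and Lum at 1.24. The 2 gate comparisons do not share a library.

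Markers of other cells moved with the gate. The summed level of 12 portal fibroblast markers was 144 and 319 CPM in the VitA+ libraries of chow and DEN+WAD, and 6846 and 3166 in the VitA-Col1a1+ libraries. All 12 were detected in each library but VitA+ chow, where Pi16 was at 0. The 10 smooth muscle markers summed to 479 and 869 CPM in the VitA+ libraries and to 4849 and 2391 in the VitA-Col1a1+ libraries, with Rergl at 0 in all of them. Endothelial markers summed to 670 and 315 against 733 and 2190. Their part in the difference between gates was not tested. Macrophage markers stayed at or under 26.9 CPM in the 4 Col1a1+ libraries, with Adgre1 and Marco at 0 in each, and Ptprc, the pan-leukocyte gene, had 0 UMIs in all 4. Some T, NK, B or plasma cell genes were not at 0 in them (33 and 319 summed UMIs in VitA+ DEN+WAD). The paper states that cells were kept by a quality check on barcode rank. Whether other barcodes or any genes were removed before deposit is not given in the sources used here.

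**Figure D2:**
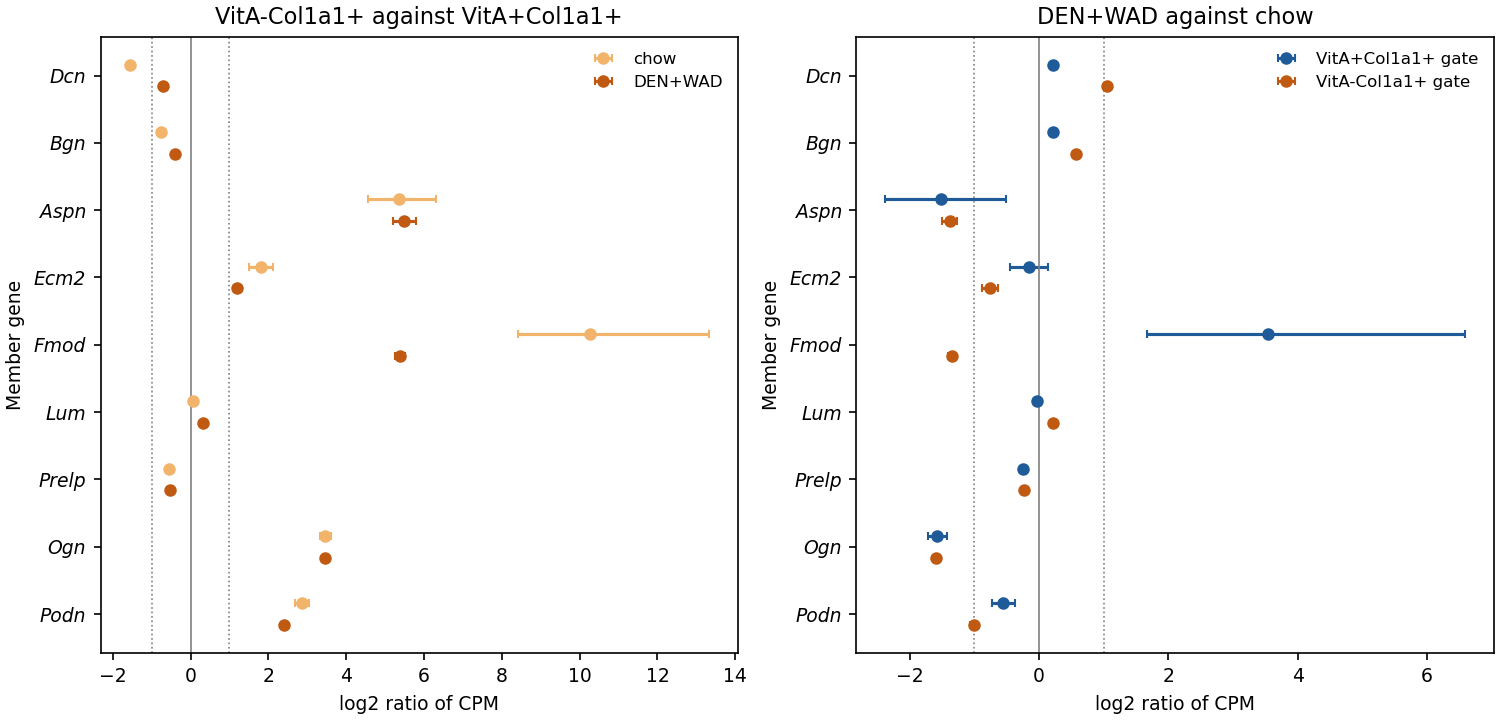
Log2 ratio of CPM for each member, with the VitA-Col1a1+ gate against the VitA+Col1a1+ gate in each diet in one panel and DEN+WAD against chow in each gate in the other. Points are ratios of 2 single libraries and bars are 95% intervals for counting error. Fmod, Aspn, Ogn and Podn lie far to the right in both diets of the gate panel. In the diet panel Ogn lies left of 0 in both gates, and Fmod lies right of 0 in the VitA+ gate and left of it in the VitA- gate.

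The comparison of DEN+WAD with chow asks what the carcinogen and the alcohol diet together change within a gate. In the VitA+Col1a1+ gate, 1 member (Fmod) was at least 2-fold higher, 2 (Ogn and Aspn) were at least 2-fold lower and 6 lay between. Fmod and Aspn did not reach a mean of 5 CPM in this pair, and of the 7 members that did, 0 were higher and 1 (Ogn) was lower. Over the 9592 genes with that mean, 0.97% were at least 2-fold higher and 3.11% at least 2-fold lower. The median log2 ratio was −0.16 over the 9 members and −0.07 over all genes.

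Ogn was at 0.336 of its chow level (0.304 to 0.373) and Podn at 0.682 (0.604 to 0.773). The direction of Podn was not stable, as in mesenchymal-like clusters drawn at resolution 0.5 its log2 ratio was 1.20, with 102 cells left in the chow library. Dcn and Bgn were each 1.16-fold higher, Prelp was at 0.845, Lum at 0.975 (0.946 to 1.005) and Ecm2 at 0.895 (0.734 to 1.10). The 2 most abundant members thus moved little in the stellate-rich gate. Fmod was 11.6-fold higher (3.20 to 96.0) and Aspn was at 0.352 (0.193 to 0.703). Both of these rest on few counts in the chow library, where the 12 Aspn UMIs came from 2 cells of a single cluster led by Spp1, Ankrd1 and Krt8. In mesenchymal-like clusters alone, the chow library had 0 Aspn UMIs. In stellate-like cells the Fmod ratio was 0.643 (0.161 to 5.59), an interval that includes no difference.

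In the VitA-Col1a1+ gate, 1 member (Dcn) reached a 2-fold higher level in DEN+WAD, 4 (Ogn, Aspn, Fmod and Podn) were at least 2-fold lower and 4 lay between. The background over 10241 genes was 4.39% higher and 4.94% lower, and the median log2 ratio was −0.76 over the members and −0.03 over all genes.

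Dcn was 2.08-fold higher (2.07 to 2.09), Bgn 1.48-fold and Lum 1.17-fold. Ogn was at 0.332, Aspn at 0.384, Fmod at 0.392 (0.379 to 0.405) and Podn at 0.497 (0.479 to 0.515). Podn lay at the edge of the 2-fold mark and passed it on the other side with TMM scaling, where its log2 ratio was −0.93. In mesenchymal-like clusters alone both Podn (log2 ratio −0.90) and Aspn (−0.97) fell short of 2-fold. Ecm2 was at 0.591 and Prelp at 0.851. In this gate the members that were low in stellate-rich cells were lower in DEN+WAD, and Dcn and Bgn were higher. The stellate marker list moved with Dcn, from 6220 to 13184 CPM, and the portal fibroblast list moved with Ogn, Fmod and Podn, from 6846 to 3166. Each diet comparison shares its libraries with the gate comparisons, so the ratios are not independent of those above.

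Portal fibroblast-like cells were compared on their own, since their share of the cells differed between the libraries. Each library was clustered without the 9 members, and these cells were 290 of 668 in VitA- chow (clusters 1, 4, 7 and 11) and 216 of 2729 in VitA- DEN+WAD (cluster 3). The largest chow cluster was led by Cxcl10 and Ccl2, which are inflammatory chemokines, and the DEN+WAD cluster by Myoc, Cilp and Serpinf1. Within them Fmod was 846 CPM in DEN+WAD and 704 in chow, a ratio of 1.20 (1.15 to 1.25), against 0.392 over all cells of the gate. Ogn was 805 against 1017, a ratio of 0.792 (0.762 to 0.824), and Podn 355 against 430, a ratio of 0.825 (0.776 to 0.876). The large gate-wide differences in Fmod, Ogn and Podn were small or of the other sign in these cells, which held all 3 at a high level. Whether the share of such cells made the gate-wide ratios was not tested. The DEN+WAD class was found at clustering resolution 1 alone, as at 0.5 no cluster took that name and one of 469 cells led by Sfrp1, Dpep1 and C7 stayed unnamed. Joined with the Lamc3-led cluster 2 of that library (471 cells, a choice made after seeing the data), it had ratios of 0.964 (0.929 to 1.0001) for Fmod, 0.731 for Ogn and 0.827 for Podn.

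Dcn was 1.47-fold higher, Lum 1.48-fold and Bgn 1.22-fold in DEN+WAD portal fibroblast-like cells. Ecm2 had a ratio of 1.22 (1.04 to 1.43), and Prelp one of 0.845, close to the 0.851 of the whole gate. Aspn, low in these cells, was 20.4 CPM against 7.29, a ratio of 2.81 (1.98 to 4.03). No member but Aspn differed by 2-fold within this class.

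**Figure D3:**
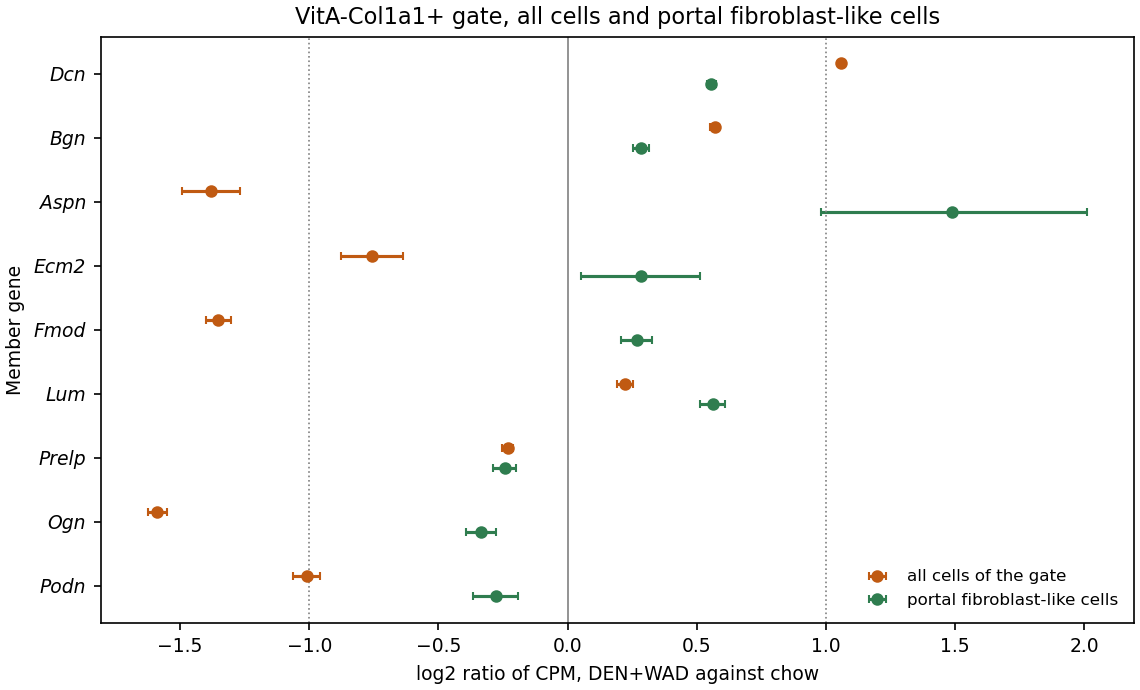
Log2 ratio of DEN+WAD to chow in the VitA-Col1a1+ gate for each member, over all cells of the library and over portal fibroblast-like cells alone. Bars are 95% intervals for counting error and dotted lines mark 2-fold. Fmod, Aspn and Ecm2 lie left of 0 over all cells and right of 0 in portal fibroblast-like cells, and Ogn and Podn lie nearer to 0 in the latter.

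Cells named stellate-like in the VitA- gate were 158 in chow (clusters 0, 6 and 8) and 1180 in DEN+WAD (clusters 0, 1, 7 and 8). Over this class Dcn was 2.90-fold and Lum 2.38-fold higher in DEN+WAD, and Fmod was at 0.109, Ogn at 0.227, Podn at 0.441 and Aspn at 0.00825. These ratios lay further from 1 than in portal fibroblast-like cells. The class held unlike clusters in chow, where cluster 8 was led by Ephx3 and Rgs4, so a pair of clusters was also compared, chosen after seeing the data. Cluster 6 of VitA- chow (27 cells) and cluster 7 of VitA- DEN+WAD (474 cells) were both led by Fcna, Hhip, Tmem56 and Colec10. Dcn was 23004 CPM in the chow cluster and 30661 in the DEN+WAD cluster, and Lum was 815 against 1236. Both clusters had Fmod near the floor, with 1 UMI and 13 UMIs, and Ogn was 89.9 (65.3 to 120.7) against 57.5 (52.2 to 63.2). Podn was 79.7 (56.7 to 108.9) against 115.1 (107.5 to 123.1), with overlapping intervals.

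The members marked different clusters. Fmod was concentrated in few cells: cluster 3 of VitA- DEN+WAD, 7.91% of its cells, held 54.0% of the Fmod UMIs, at 846 CPM against 80.8 in the other cells. Cluster 21 of VitA-Col1a1- DEN+WAD, portal fibroblast-like and 2.22% of the cells, held 53.5% of them. A second DEN+WAD cluster of the VitA-Col1a1+ gate, number 2 with 255 cells led by Lamc3, Dpep1, F3 and Mgp, stayed unnamed and had Fmod at 521, Ogn at 684 and Podn at 357 CPM.

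In the VitA+ DEN+WAD library, 85.3% of the Fmod UMIs came from cluster 6, which was 291 cells led by Mgp, Mfap4, Gas6 and Gpx3. The Fmod level was 90.6 CPM there and 0.574 in the other cells. The same cluster had the highest Ogn (158), Podn (146), Lum (1205), Ecm2 (36.4) and Bgn (5739) levels of that library. It held all 15 stellate markers and 7 of 12 portal fibroblast markers, and was left unnamed.

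Aspn had its highest levels in clusters with contractile genes in all libraries but VitA+ chow, though not most of its UMIs in each. In VitA- DEN+WAD, cluster 9, led by Ephx3, Acta2, Vtn and Nov, held 77.1% of the Aspn UMIs at 251 CPM, against 7.79 elsewhere, and its Fmod level was 9.56. Cluster 10 of VitA- chow, smooth muscle-like, had the highest Aspn level of that library at 279, but held 21.8% of its Aspn UMIs. Stellate-like cells of that library held 32.6% of them at 120 CPM, and unnamed cells 41.4% at 152 CPM. In VitA-Col1a1- DEN+WAD the top cluster, led by Actg2, Ankrd1 and Cnn1, had 116 and held 48.6% of the UMIs. In VitA+ DEN+WAD the cluster led by Acta2 and Lmod1 held 72.8% of the few Aspn UMIs. Thus the top Aspn cluster of 3 libraries had smooth muscle genes such as Acta2, Myh11 or Cnn1 among its leading genes, and that of the VitA- chow library took its name from 8 of 10 smooth muscle markers.

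Dcn peaked in stellate-like clusters of every library, between 23004 and 30661 CPM. Lum peaked in stellate-like clusters in 3 libraries and in unnamed ones in the others, at 1058 to 1572. Prelp differed little between its top cluster and the other cells in the VitA+ libraries, with 2454 against 2074 in chow and 2083 against 1755 in DEN+WAD.

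**Figure D4:**
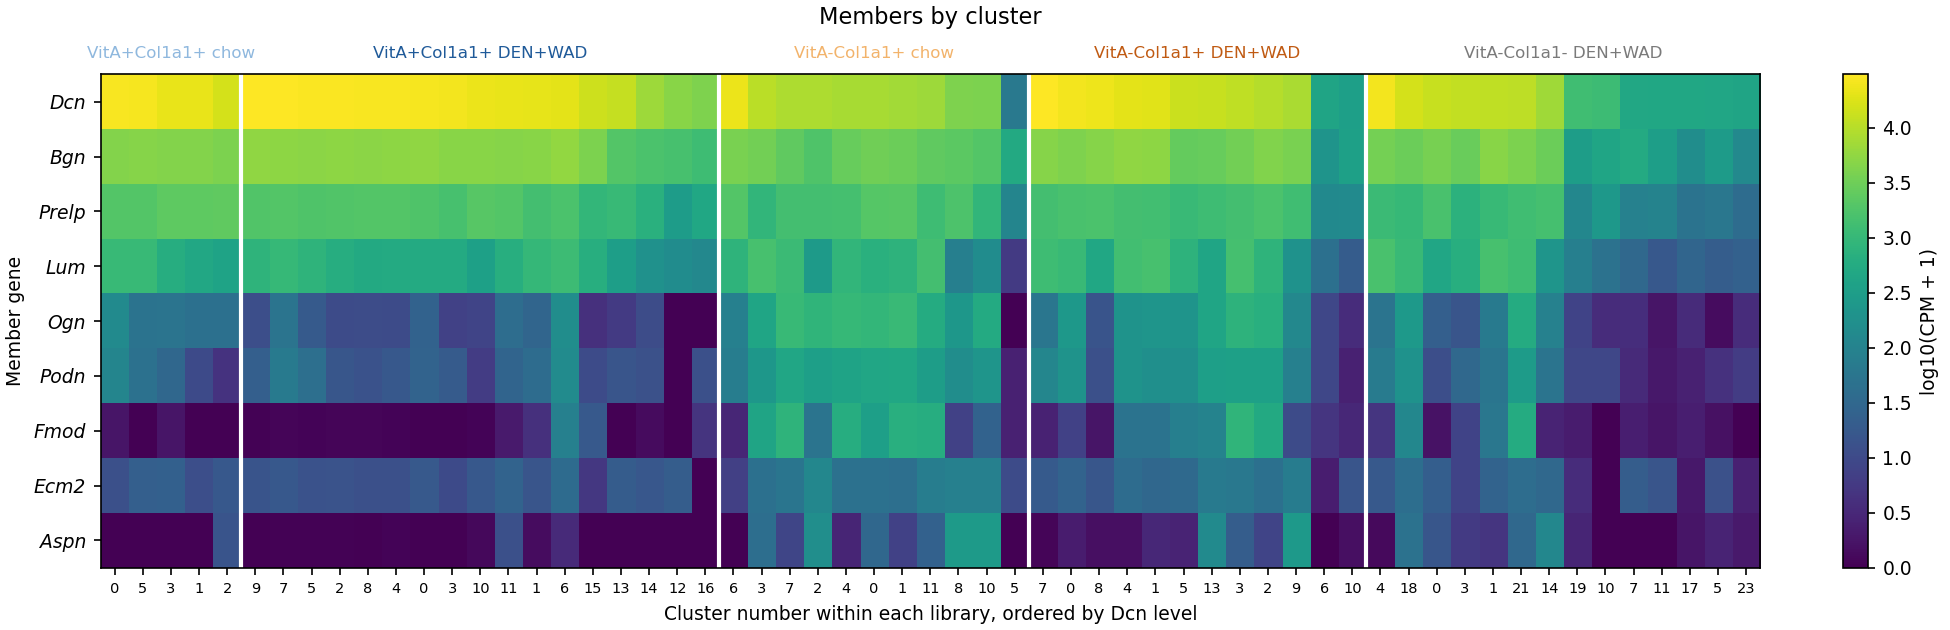
Level of each member in each cluster of at least 20 cells, as log10 of CPM plus 1, with clusters grouped by library and ordered by Dcn level. The VitA-Col1a1- library shows mesenchymal-, endothelial- and macrophage-like clusters only. Dcn, Bgn and Prelp are high across most mesenchymal clusters, Fmod is high in few clusters of the VitA- libraries, and Aspn is high in others.

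Over 58 clusters of at least 50 cells in the 5 libraries, Ogn and Podn had the most alike patterns of any pair of members (Pearson r = 0.98 on log2 levels). Each was the gene most like the other among 7607 genes. Next came Bgn with Prelp (0.96) and Dcn with Bgn (0.96), while Dcn with Aspn (0.06) and Lum with Aspn (0.03) were near 0. Clusters of 1 library share cells, depth and mouse, and some of the genes compared were also used in clustering, so these values are descriptions.

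The genes most like Dcn were Hand2 (0.98), a stellate cell transcription factor, Ms4a4d (0.98) and Srpx2 (0.97). For Bgn they were Pcolce (0.97), a helper of procollagen processing, Pde1a (0.97) and Efemp2 (0.97). For Prelp they were Angptl2 (0.97), Pcolce (0.97) and P3h3 (0.97). For Lum they were Olfml3 (0.97), Islr (0.94) and Cygb (0.94), a globin of stellate cells. The Fmod pattern was nearest to Dpep1 (0.97), Pappa (0.96) and Itgbl1 (0.96), and Dpep1 is on the portal fibroblast list. Ogn and Podn shared Dact3 (0.95 and 0.94), with Adamtsl1 (0.95) next for Ogn and Cpz (0.95) for Podn. Aspn was nearest to Nov (0.96), Ephx3 (0.92) and Nkain4 (0.92), and Ecm2 to Rtn2, 2310022B05Rik and Cavin1 (0.89 to 0.90).

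The share of cells with at least 1 UMI was taken in cells of 5000 or more UMIs, each thinned at random to 5000. This left out 5 cells of VitA+ chow, 268 of VitA+ DEN+WAD, 25 of VitA- chow, 157 of VitA- DEN+WAD and 2547 of VitA-Col1a1- DEN+WAD. Dcn was found in 98.0%, 99.5%, 95.02%, 93.9% and 73.0% of cells in that order, and Bgn and Prelp were as widespread, at 89.0% or more in the Col1a1+ libraries. Lum was found in 85.8%, 79.5%, 74.2%, 71.0% and 43.5%. These members thus belonged to most cells of every Col1a1+ library.

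Fmod was found in 0 of 254 cells of VitA+ chow, with an exact upper bound of 1.44% of cells with a UMI at this depth (3 of 254 cells would be 1.18%). It was found in 0.529%, 53.8%, 19.0% and 5.89% of the other libraries in that order. Without thinning the shares were 0.787%, 1.12%, 63.9%, 25.04% and 8.34%. By thinned share the libraries stood in the same order as by Fmod level. Aspn was found in 0.787%, 0.176%, 19.3%, 6.53% and 3.63% of thinned cells and Ecm2 in 8.27%, 6.92%, 22.2%, 13.7% and 7.88%. Ogn was found in 26.4%, 7.84%, 81.0%, 39.2% and 12.6%, and Podn in 16.9%, 11.9%, 66.1%, 39.3% and 11.5%. For both, the VitA- chow library stood highest, with and without thinning (unthinned 89.3% for Ogn and 86.9% for Podn).

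Free RNA in droplets gives UMIs in cells that do not make a gene, so shares were also taken in cells that should lack these genes. In 966 macrophage-like cells of VitA-Col1a1- DEN+WAD (median 19889 UMIs before thinning), Dcn was found in 32.3%, Bgn in 19.4%, Prelp in 9.42% and Lum in 7.35%. The other 5 members were found in 0.518% to 1.14% of these cells. These shares come from another library, in which Aspn and Fmod levels were higher than in the VitA+ libraries, so they set no background for those. Within VitA+ DEN+WAD, 1 of 206 endothelial-like cells had Fmod (0.485%, 0.0123% to 2.67%) and 0 had Aspn, which allows up to 1.46%, so the Fmod and Aspn shares of that library, 0.529% and 0.176%, could not be told from background at this depth. The Fmod UMIs of VitA+ DEN+WAD were not spread evenly, as given above for its cluster 6. In 402 endothelial-like cells of VitA- DEN+WAD, Fmod was found in 0.995%, Ogn in 1.24% and Aspn in 0 of 402, which allows up to 0.746%, all below the shares over all cells of that library. In 2037 endothelial-like cells of VitA-Col1a1- DEN+WAD (median 8428 UMIs before thinning), Bgn was found in 65.2%, Dcn in 49.9%, Prelp in 28.1% and Ecm2 in 7.07%. The Ecm2 share was thus like that of the VitA+ libraries.

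Fmod, Ogn and Podn were each found in most portal fibroblast-like cells. Fmod was found in 93.6% of 283 such cells in VitA- chow and in 90.2% of 214 in VitA- DEN+WAD. The shares were 98.2% and 88.8% for Ogn, and 82.7% and 73.4% for Podn. The number of members found per cell had a median of 4 in both VitA+ libraries, 7 in VitA- chow, 5 in VitA- DEN+WAD and 3 in VitA-Col1a1- DEN+WAD. At least 7 members were found in 50.9% of VitA- chow cells, 15.05% of VitA- DEN+WAD cells and 0.392% of VitA+ DEN+WAD cells.

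Members were also set against each other cell by cell among mesenchymal-like cells. In VitA- chow, Aspn was found in 4.46% of 314 cells with Fmod (2.46% to 7.37%) and in 47.6% of 189 cells without it (40.3% to 55.0%). In VitA- DEN+WAD the shares were 5.23% of 459 cells with Fmod and 9.94% of 1439 without. In VitA-Col1a1- DEN+WAD they were 7.82% of 409 and 6.85% of 3196, and in VitA+ DEN+WAD, where few cells had either, 3.77% of 53 and 0.161% of 9929. Aspn was thus less frequent in cells with Fmod in VitA- chow, and this did not hold in the VitA+ DEN+WAD and VitA-Col1a1- libraries. Ogn ran with Fmod: in VitA- DEN+WAD it was found in 87.1% of cells with Fmod and 33.0% of cells without, and in VitA- chow in 97.5% and 64.0%.

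**Figure D5:**
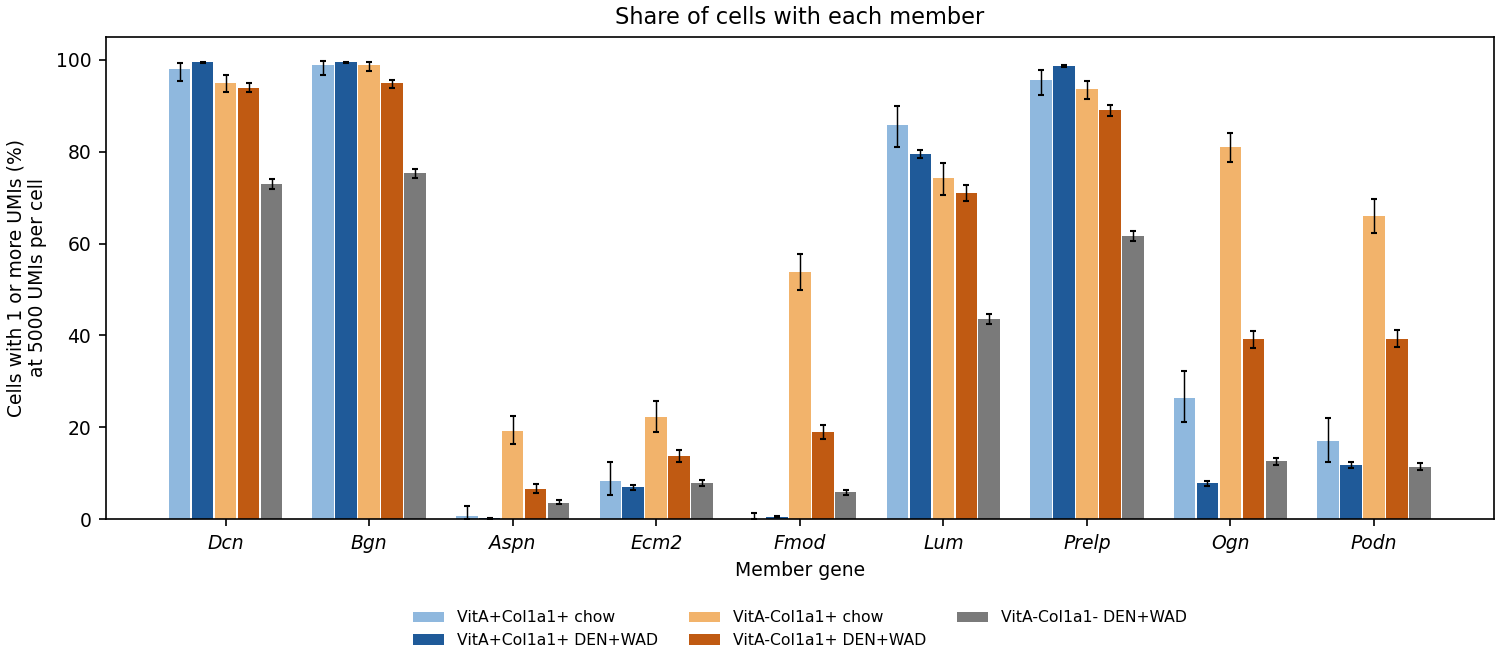
Share of cells with at least 1 UMI of each member, in percent, among cells with 5000 or more UMIs thinned to 5000, in each of the 5 libraries. Bars are shares and whiskers are exact Clopper-Pearson 95% intervals. Dcn and Bgn reach most cells of every library, and Fmod, Ogn, Podn, Aspn and Ecm2 are highest in VitA- chow.

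Bgn, Prelp and Ecm2 stood out from Dcn in endothelial-like cells. For Bgn, in endothelial-like cells of VitA- chow (36 cells) it had 519.6 CPM against 64.6 for Dcn, which is 805 Bgn UMIs per 100 Dcn UMIs. In mesenchymal-like cells of that library the figure was 35.5. In endothelial-like cells of VitA- DEN+WAD and VitA-Col1a1- DEN+WAD it was 97.0 and 74.6, against 23.6 and 28.6 in the mesenchymal-like cells. It was 23.7 against 19.3 in VitA+ DEN+WAD, where the endothelial-like cells also held Dcn at 6871 CPM. In macrophage-like cells of VitA-Col1a1- DEN+WAD it was 30.5, near the 28.6 of the mesenchymal-like cells. Ecm2 UMIs per 100 Dcn UMIs were 3.73 in endothelial-like and 0.208 in mesenchymal-like cells of VitA- DEN+WAD, and 3.09 and 0.187 in VitA-Col1a1- DEN+WAD, where endothelial-like cells held 16.9% of all Ecm2 UMIs. The Ecm2 figures were 0.227 and 0.0565 in VitA+ DEN+WAD, and 14.6 and 0.736 in VitA- chow, there on 6 endothelial-like UMIs. Prelp UMIs per 100 Dcn UMIs were 35.2 in endothelial-like and 7.84 in mesenchymal-like cells of VitA- DEN+WAD. The Prelp figures were 19.0 and 9.46 in VitA-Col1a1- DEN+WAD, 10.2 and 6.86 in VitA+ DEN+WAD, and 171 and 21.3 in VitA- chow.

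Genes around the family were taken from fixed lists. Of 8 other family genes, Omd and Tsku alone reached a mean of 5 CPM in any of the 4 comparisons. Omd had 147 UMIs in VitA- chow and 18 in VitA+ chow, and was 3.35-fold higher in the VitA- gate (2.05 to 5.80). Epyc, which is a cartilage gene, had 0 UMIs in the 4 Col1a1+ libraries, and Kera, Chad and Podnl1 had at most 5 in each. Optc had 4 to 77 UMIs and Nyx 1 to 51 in these libraries.

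Most enzymes that build the linker and the chondroitin or dermatan chains stayed within 2-fold between gates. Of 22 genes, 18 passed the filter in the chow gate comparison, 3 were at least 2-fold higher and 2 lower, with a median log2 ratio of 0.08. Over all genes 10.5% were as much higher and 5.37% as much lower. Csgalnact1, which starts chondroitin chains, was 8.17-fold higher in the VitA- gate, Chst7 6.23-fold and Chst11 5.25-fold, the latter pair being sulphotransferases. In the DEN+WAD gate comparison 17 passed, with 2 higher and 1 lower, against 8.64% and 1.65% over all genes. In both diet comparisons (15 and 18 passing) none was called either way, where the shares over all genes were 0.97% to 4.94%. Of 8 keratan sulphate enzymes, 3 or 4 passed in each comparison, and the single call was Chst2, 3.11-fold higher in the VitA- gate of DEN+WAD.

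Collagens are the ligands that these proteins coat. Of 13 genes for fibrillar and fibril-associated collagens, 11 passed in chow and 9 were at least 2-fold higher in the VitA- gate with none lower, against 10.5% higher over all genes, and the median log2 ratio was 1.78. Col1a1 was 18.4-fold higher (17.0 to 20.0) and Col6a3 4.58-fold, while Col12a1, with 1 UMI in the VitA+ library, was 112-fold higher with an interval of 19.9 to 4435. In the DEN+WAD gate comparison 3 of 11 were higher and none lower, against 8.64% higher over all genes, among them Col1a1 at 3.15-fold. Between diets 1 of 10 was higher in the VitA+ gate, Col1a1 at 3.06-fold, against 0.97% higher over all genes. In the VitA- gate 1 of 11 was lower, Col6a3 at 0.464, against 4.94% lower over all genes.

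Of 14 genes for enzymes that cleave the family, 8 passed in the chow gate comparison, and 5 were higher in the VitA- gate and none lower, against 10.5% higher over all genes. Mmp3, a stromelysin, had 1036 UMIs there and 0 in VitA+ chow, at least 142-fold higher with 3 UMIs set as the floor of the library. Htra1, a secreted protease, was 11.0-fold higher and Adamts4 6.00-fold. In the DEN+WAD gate comparison 4 of 8 were higher and none lower, against 8.64% higher over all genes. Between diets 1 of 7 was higher in the VitA+ gate (Adamts4, 3.26-fold), against 0.97% higher over all genes. In the VitA- gate 0 of 8 were called, against 4.39% higher and 4.94% lower over all genes.

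Of 10 growth factors held by these proteins, 9 passed in each gate comparison, with 5 higher and 1 lower in chow and 5 higher and none lower in DEN+WAD. Over all genes 10.5% were higher and 5.37% lower in chow, and 8.64% and 1.65% in DEN+WAD. Tgfb3 was 18.0-fold higher in the VitA- gate of chow (12.8 to 26.3) and 4.65-fold in that of DEN+WAD, and Pdgfa 5.58-fold and 3.04-fold. None of the 8 that passed was called between diets in the VitA+ gate, where 0.97% of all genes were higher and 3.11% lower. In the VitA- gate 1 of 9 was higher in DEN+WAD (Tgfb1, 2.13-fold) and 2 were lower (Tgfb3 at 0.430 and Pdgfa at 0.448). Over all genes 4.39% were higher and 4.94% lower in that comparison. Of 13 receptors, 9 passed in each gate comparison, with 2 higher in chow and 1 in DEN+WAD and none lower. A single gene of 9 is about the 8.64% of all genes called higher in DEN+WAD, and the 2 of 9 in chow stand against 10.5%. Cd44 was 7.35-fold and Egfr 2.79-fold higher in the VitA- gate of chow. Kdr, an endothelial receptor, was 10.4-fold higher in the VitA- gate of DEN+WAD, the library in which endothelial markers summed highest of the 4. Between diets, Kdr was at 0.261 and Cd44 3.48-fold higher in the VitA+ gate. In the VitA- gate 2 of 10 were higher, against 4.39% over all genes: Kdr at 2.50-fold and Tlr2, a receptor for biglycan, at 2.05-fold.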

How the data were processed

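The authors loaded cells of each of the 5 gates on a 10x Genomics 3′ droplet system, aiming at 10000 cells per library. The labels name both a v3.1 and a v2 kit, and the choice between them is not given. Reads were aligned by the authors to mm10, and they counted UMIs with Cell Ranger, and the file headers name version 3.1.0 for the Col1a1+ libraries and 6.1.2 for the VitA-Col1a1- library. That change of version falls on the library used in no ratio. The authors deposited UMI counts for each gene and barcode, not normalized, and every deposited barcode (lowest total 500 UMIs) was used as a cell. No doublet caller was run. Groups came from the labels, with 1 library in each.

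UMIs were summed per library or cluster and divided by its total. Levels carry exact Poisson intervals, ratios conditional binomial intervals and shares exact Clopper-Pearson intervals, all at 95% and all for counting error only. For a share of 0, the limit given is the share that 3 cells would make, which lies under the exact upper bound. A gene was called at a 2-fold ratio, over genes with a mean of at least 5 CPM in the pair of libraries, and a library at 0 UMIs was set to 3. Members were counted whatever their mean, with those below it named. No test across genes was run. The call rule was tested on simulated counts with counting error alone, which tells nothing of the spread between libraries or mice.

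Each library was clustered alone, without the 9 members (10000 counts per cell, 2000 variable genes, 30 principal components, 15 neighbours, Leiden resolution 1). Clusters were named from the marker list with the largest share of markers found, where at least 3 markers were each found in 25% of cells. They stayed unnamed where another list led among their 10 leading genes or an unrelated list had 75% or more of its markers found. The same held where median UMIs lay below the library median divided by 3 and no leading gene was on the list. A mesenchymal-like cluster is one named from the smooth muscle, portal fibroblast or stellate list, or from these together. Python 3.11.15, scanpy 1.11.5, scipy 1.17.1, igraph 0.11.9 and edgeR 4.0.16 in R 4.3.3 (TMM factors) were used, with a random seed of 7. Gene identifiers were located in GENCODE M21 (30934 of 31053 found).

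Named genes were all members, the other family genes, at most the 3 largest ratios of each list per comparison, the 3 genes most like each member over clusters (log2 of CPM plus 10), and the top cluster of each member in each library. Genes and clusters named beyond that rule were chosen after their values were seen: the Fcna-led pair of clusters, and cluster 2 of VitA-Col1a1+ DEN+WAD, alone and joined with cluster 3. The members and lists were chosen with earlier results of these data known.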

Additional observations from a re-analysis of the deposited data

Results flagged for a closer look

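Fmod differed between DEN+WAD and chow in opposite directions in the 2 Col1a1+ gates, with both counting intervals clear of no difference. The log2 ratio was 3.54 in the VitA+Col1a1+ gate, where the chow library held 2 UMIs, and −1.35 in the VitA-Col1a1+ gate, where the libraries held 6041 and 7519. With 1 library per group the difference between the gates was not tested. In stellate-like cells of the VitA+ gate the Fmod ratio was 0.643 (0.161 to 5.59), on 26 and 2 UMIs. Over all cells Lum also had ratios on either side of 1, 0.975 and 1.17, with the first interval including no difference, and in mesenchymal-like cells they were 0.883 (0.855 to 0.911) and 1.32 (1.29 to 1.36). In the VitA+Col1a1+ DEN+WAD library 85.3% of the Fmod UMIs lay in 1 cluster of 291 cells, led by Mgp and Mfap4.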

How the results depend on the processing

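With 1 library per group no replicate could be left out. No paired analysis was possible because every group held 1 library and no test was made. Counts of members past 2-fold were recomputed with TMM scaling, in mesenchymal-like clusters at both clustering resolutions, in cells of 5000 or more UMIs, as a mean over cells, without the 50 most abundant genes and, added after seeing the data, in a wider set of mesenchymal clusters; with the counts of members by share of cells, 72 of 76 such values stayed within 1.5 times. In the VitA+ diet comparison, mesenchymal-like clusters gave 1 lower member in place of 2, and resolution 0.5 gave 2 higher in place of 1, since Podn turned from −0.55 to 1.20 (log2). In the VitA- diet comparison mesenchymal-like clusters gave 2 lower in place of 4 at either resolution, with Podn at −0.90 and −0.96 and Aspn at −0.97 and −0.76. Podn also lost its call there with TMM (−0.93), without the 50 most abundant genes (−0.99) and in the wider clusters (−0.86). One ratio past 2-fold reversed: Aspn between diets in the VitA+ gate, from −1.51 to 0.23 in mesenchymal-like clusters, where the chow library was at 0 UMIs and set to the floor of 3. Lum in the chow gate comparison ran from 0.05 to −0.11, and in the VitA+ diet comparison TMM turned Ecm2 to 0.03 and Lum to 0.15, with Lum at 0.50 at resolution 0.5. TMM moved every gene by −0.09, −0.20, 0.19 and 0.08 on the log2 scale in the 4 comparisons in the order of the report. Of 252 log2 ratios under alternatives, 136 moved beyond their counting interval, which is narrow at these depths. Few UMIs of Fmod and Aspn in VitA+Col1a1+ chow limit their ratios.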
